A study of Homo sapiens with 6 samples.

Results

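NKG2D ligands are cell-surface proteins by which stressed, infected or transformed cells are recognised by natural killer cells and some T cells. Here they were 5 genes, MICA, MICB, ULBP1, ULBP2 and ULBP3, measured in A549, a human lung adenocarcinoma line. The rule took every probe set that the platform annotation assigns to a single one of these genes, which gave 6 probe sets of 54675 (2 for ULBP2 and 1 for each of the others) and 5 of 19775 genes. The family was chosen by the intensities of MICB in these same arrays, which had been seen to be higher with knockdown of CNOT3. The changes of its members with knockdown are therefore described here with no test.

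The receptor NKG2D, encoded by KLRK1, is an activating receptor that signals through the adaptor DAP10, encoded by HCST, and its ligands are distant relatives of MHC class I. MICA and MICB cross the membrane and carry an immunoglobulin-like alpha-3 domain, whereas ULBP1, ULBP2 and ULBP3 lack that domain and are held by a glycosylphosphatidylinositol (GPI) anchor. Healthy epithelium shows little of these proteins, and their genes are known to respond to heat shock, DNA damage and amino acid stress. CNOT3 is a subunit of CCR4-NOT, the complex that shortens the poly(A) tails of mRNAs.

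The arrays came from 3 stable lines of A549, each made with a lentiviral vector that carries a tetracycline-inducible short hairpin RNA. The shCNOT3-1 and shCNOT3-2 lines carry hairpins against different sequences of CNOT3, and the shNTC line carries a non-targeting hairpin. Each line was grown with doxycycline (DOX, 1 ug/ml, 72 hours), which induces the hairpin, and without it, and there was 1 array for each line and state. DOX itself was therefore given to the control line too. All 6 arrays come from 1 cancer cell line in culture, the labels do not say whether a stable line is a clone or a pool, and nothing describes repeat cultures. The 2 hairpins are the only replicates of knockdown (n = 2).

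The 10 epithelial and A549 marker genes were all above the dim level, an intensity of 61.4 that equals the median of all probe sets and is used below as the boundary under which values are unreliable. Of 14 killer lymphocyte and leukocyte genes 3 were above it (HCST, NCAM1 and PRF1). Their summed intensity was 465 and 593 in the shCNOT3 lines with DOX and 497 to 639 on the other 4 arrays, and none was listed at 0. CNOT3 read 81.9 with DOX and 227 without in shCNOT3-1, 46.9 and 228 in shCNOT3-2, and 166 and 178 in shNTC, a mean log2 change of -1.86 ± 0.57 in the shCNOT3 lines (SD, n = 2, adjusted p = 0.0595 in limma, 0.035 to 0.537 over the alternatives) against -0.10 in shNTC. Its 2 other probe sets gave -2.13 and -2.22, and -1.40 and -2.65, in the shCNOT3 lines, but they did not leave shNTC level, at -1.43 and 0.73. For ACTB, signal near the 3' end over signal near the 5' end, a measure of RNA integrity, was 1.42 with and 1.33 without DOX in shCNOT3-1, 1.45 and 1.36 in shCNOT3-2, and 1.47 and 1.58 in shNTC. The value was higher with DOX in both shCNOT3 lines and lower with DOX in shNTC, and its part in the results below was not tested. The same ratio for GAPDH did not follow it, at 1.03 with and 0.980 without DOX in shCNOT3-1, 1.05 and 1.09 in shCNOT3-2, and 0.966 and 0.980 in shNTC.

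The promoters are shown because MICA and MICB were closely alike here while their values with knockdown were not, and because ULBP1 and ULBP2 share a motif. Each is the 250 bases before the start site in RefSeq, build GRCh38.p14, + strand, 5′ to 3′, in which all 5 genes had an entry. Capitals mark 4 motifs searched on both strands: the CCAAT box (CCAAT), the GC box (GGGCGG), the core of a cAMP response element (TGACG) and a pair of inverted heat shock units (GAANNTTC).
MICA, chr6:31403345-31403594: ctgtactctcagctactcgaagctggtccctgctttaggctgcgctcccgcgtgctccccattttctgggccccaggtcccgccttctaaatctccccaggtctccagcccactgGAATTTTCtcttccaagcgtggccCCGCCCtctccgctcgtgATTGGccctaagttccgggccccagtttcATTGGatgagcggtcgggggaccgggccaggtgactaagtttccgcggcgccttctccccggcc
MICB, chr6:31497895-31498144: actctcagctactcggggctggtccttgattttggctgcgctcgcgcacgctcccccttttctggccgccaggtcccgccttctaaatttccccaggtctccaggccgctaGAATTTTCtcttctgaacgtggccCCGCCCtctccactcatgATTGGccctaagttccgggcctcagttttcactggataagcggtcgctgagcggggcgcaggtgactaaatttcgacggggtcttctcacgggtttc
ULBP1, chr6:149963693-149963942: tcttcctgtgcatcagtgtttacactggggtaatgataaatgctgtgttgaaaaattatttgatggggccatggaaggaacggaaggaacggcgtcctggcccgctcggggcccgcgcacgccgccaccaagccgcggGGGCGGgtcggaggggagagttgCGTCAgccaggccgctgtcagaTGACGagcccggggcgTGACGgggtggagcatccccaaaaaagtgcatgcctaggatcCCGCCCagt
ULBP2, chr6:149941764-149942013: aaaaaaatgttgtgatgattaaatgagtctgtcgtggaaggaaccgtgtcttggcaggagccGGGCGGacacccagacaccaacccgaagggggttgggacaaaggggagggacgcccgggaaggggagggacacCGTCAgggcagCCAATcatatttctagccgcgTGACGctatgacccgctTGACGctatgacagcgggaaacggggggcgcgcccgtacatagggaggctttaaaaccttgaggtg
Over these 250 bases MICA and MICB were 82.7% identical (210 of 254 alignment columns), whereas any other pair among the 5 genes was 40.4% to 49.5% identical. Both hold 1 pair of heat shock units, 135 bases before the start in MICA and 139 in MICB, a motif in 5.78% of 35116 promoters of that length. MICA has 2 CCAAT boxes, MICB and ULBP2 have 1 each, and ULBP1 and ULBP3 have 0. That motif occurs at least once in 32.0% of promoters. ULBP1 and ULBP2 each hold 3 TGACG cores, and MICA, MICB and ULBP3 hold 0. At least 1 such core occurs in 21.2% of promoters. ULBP3 is GC-rich at 72.0% and holds 6 GC boxes, ULBP1 holds 2, and MICA, MICB and ULBP2 hold 1 each. At least 1 GC box occurs in 42.6% of promoters. A match of letters is a description of the sequence and not a binding site.

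MICB, one of the transmembrane ligands, was brighter with DOX in both CNOT3 hairpin lines. Its probe set (206247_at) read 2790 with and 1142 without DOX in shCNOT3-1, 2658 and 971 in shCNOT3-2, and 1412 and 1052 in shNTC. The 2 arrays with knockdown were thus the highest of the 6, and the brightest of the other 4 was shNTC with DOX. How many of all genes show this order was not counted, so nothing is read from it. The ratio with over without DOX was 2.44 in shCNOT3-1 and 2.74 in shCNOT3-2, against 1.34 in shNTC. On the log2 scale the mean change was 1.37 ± 0.12 (SD, n = 2 hairpins), against 0.43 in shNTC, a difference of 0.94 between them. Without DOX the 3 lines differed by 1.18-fold at most.

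Among the 12630 genes above the dim level, 204 had a larger log2 change than MICB in shCNOT3-1, 164 in shCNOT3-2 and 1506 in shNTC. At least a 2-fold difference upward in both shCNOT3 lines was seen in 96 of these genes (0.76%), MICB among them. In the fit over all genes, limma called 67 (0.53%) at an adjusted p under 0.05, of which 29 (0.23%) were higher and 38 (0.301%) lower. MICB was 1 of the 29. Nothing is read from that or from its place in the counts above, since its change led to the choice of the genes. Calls in this design depended on the model, and with a term for DOX itself limma called 0 (1059 at an unadjusted p under 0.05).

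MICA, the close relative of MICB, had nearly level intensities. Its probe set (205904_at) read 1940 with and 2003 without DOX in shCNOT3-1, 2164 and 1905 in shCNOT3-2, and 2365 and 2043 in shNTC. The arrays with knockdown lay within the range of the other 4, and the highest value came from shNTC with DOX. Log2 changes were -0.05 and 0.18 in the shCNOT3 lines, a mean of 0.07 ± 0.16 (SD, n = 2), against 0.21 in shNTC. Over the 6 arrays MICA varied less than most genes, with an SD of 0.11 on the log2 scale that was above that of 6.56% of the tested genes, whereas MICB at 0.62 was above 94.3%.

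A further probe set (205905_s_at) is assigned to both MICA and MICB, so it is no member and names neither gene. It read 1208 with and 889 without DOX in shCNOT3-1, 951 and 966 in shCNOT3-2, and 1282 and 934 in shNTC. Its log2 change was 0.44 in shCNOT3-1 and -0.02 in shCNOT3-2, against 0.46 in shNTC, and did not follow those of the MICB probe set. In shCNOT3-2, where the MICB probe set gave its larger change of 1.45, the shared probe set gave -0.02. MICB therefore rests on 1 probe set, and a probe set common to both genes did not show its pattern. The antisense RNA MICA-AS1 (230937_at) read 179 with and 122 without DOX in shCNOT3-1, 135 and 114 in shCNOT3-2, and 79.4 and 165 in shNTC. The divergent transcript MICB-DT was under the dim level on all 6 arrays.

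**Figure D1:**
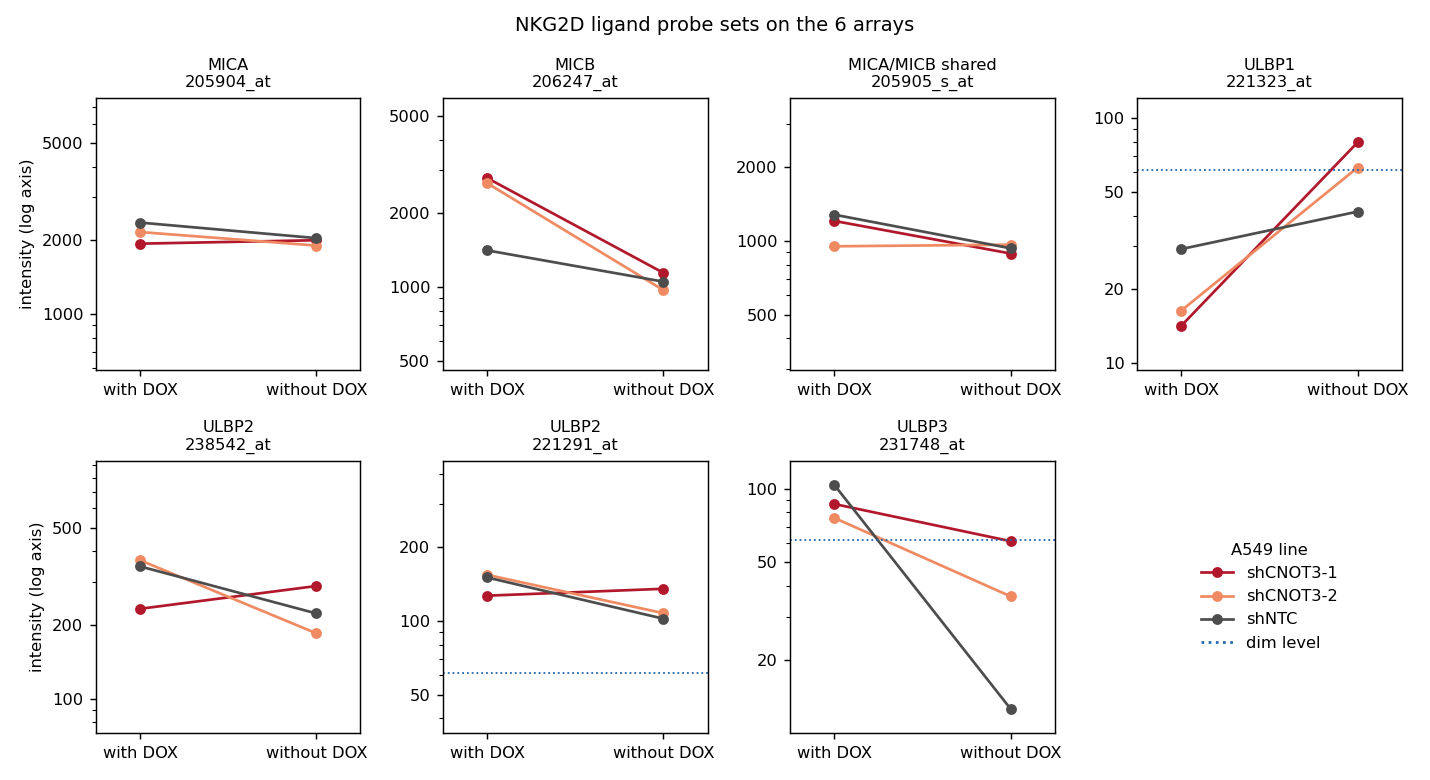
Intensity on a log axis, with DOX on the left and without DOX on the right, for each of the 6 member probe sets and the probe set shared by MICA and MICB. Each line joins the 2 arrays of one stable line and every panel spans the same fold range. The MICB panel shows 2790 and 2658 in the shCNOT3 lines with DOX above all other arrays, and the ULBP1 panel slopes the opposite way, across the dim level drawn as a dotted line.

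ULBP1, a GPI-anchored ligand whose gene is a known target of the stress factor ATF4, was dimmer with DOX in all 3 lines. Its probe set (221323_at) read 14.2 with and 79.7 without DOX in shCNOT3-1, 16.4 and 62.9 in shCNOT3-2, and 29.2 and 41.5 in shNTC. The 2 arrays with knockdown were the lowest of the 6, an order whose share among all genes was not counted. Only 2 arrays, the shCNOT3 lines without DOX, exceeded the dim level of 61.4. The mean log2 intensity of ULBP1 over the 6 arrays, 5.12, was under that level (5.96 on this scale). The gene was therefore left out of the tests, and the size of its change is uncertain. Log2 changes were -2.41 and -1.88, a mean of -2.14 ± 0.37 (SD, n = 2), against -0.49 in shNTC. With 16 or 64 in place of 1 added before log2 the mean was -1.48 or -0.77. Its sign could not turn, since both lines were lower with DOX. Of the 7145 genes under the dim level, 293 (4.10%) had a difference of at least 2-fold downward in both shCNOT3 lines, ULBP1 among them, and 104 (1.46%) had a lower mean change than ULBP1.

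ULBP2, also GPI-anchored, had no common direction in the CNOT3 hairpin lines. Its brighter probe set (238542_at) read 233 with and 289 without DOX in shCNOT3-1, 368 and 185 in shCNOT3-2, and 347 and 223 in shNTC. The highest and the lowest array of the 6 both came from shCNOT3-2, and the knockdown array of shCNOT3-1 lay among those without DOX. Log2 changes were -0.31 and 0.99, a mean of 0.34 ± 0.92 (SD, n = 2) in which the spread exceeded the mean, against 0.64 in shNTC. The second probe set (221291_at) was dimmer, at 127 with and 135 without DOX in shCNOT3-1, 154 and 108 in shCNOT3-2, and 151 and 102 in shNTC. It had the same signs as the first in each line, at -0.09, 0.52 and 0.56.

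ULBP3, also GPI-anchored, differed most in the control line. Its probe set (231748_at) read 86.6 with and 61.0 without DOX in shCNOT3-1, 76.0 and 36.3 in shCNOT3-2, and 104 and 12.6 in shNTC. The 3 arrays with DOX were the highest and the only ones above the dim level. The log2 change was 2.95 in shNTC, against 0.50 and 1.05 in the shCNOT3 lines, a mean of 0.77 ± 0.39 (SD, n = 2). Of the 7145 genes under the dim level, 159 had a larger change in shNTC. Without DOX the 3 lines differed by 4.84-fold at most, and the change in shNTC rests on its low value of 12.6. The size of these changes is therefore uncertain. With 16 or 64 in place of 1 added before log2, the mean in the shCNOT3 lines was 0.61 or 0.37.

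**Figure D2:**
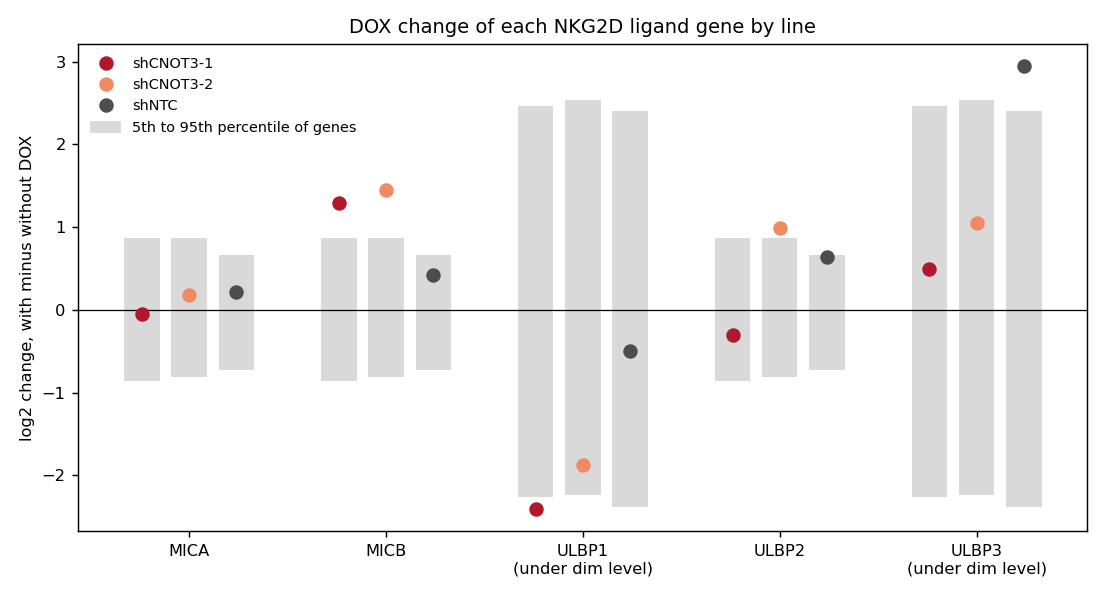
Log2 change (with minus without DOX) of each ligand gene, read from its brightest probe set, in the shCNOT3-1, shCNOT3-2 and shNTC lines. Grey bars span the 5th to 95th percentile of genes in the same line, taken above the dim level for MICA, MICB and ULBP2 and under it for ULBP1 and ULBP3. MICB at 1.29 and 1.45 lies above its bars, ULBP2 does so in shCNOT3-2, ULBP3 in shNTC, and ULBP1 at -2.41 lies just under its bar in shCNOT3-1.

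As a family the 5 genes did not move one way. Their median log2 change was -0.05 in shCNOT3-1, 0.99 in shCNOT3-2 and 0.43 in shNTC, where that of all 12630 genes above the dim level was 0.05, 0.02 and -0.01. In shNTC 4 of the 5 were higher with DOX, all but ULBP1. In the shCNOT3 lines MICB and ULBP3 were higher in both, ULBP1 was lower in both, and MICA and ULBP2 had opposite signs. Only MICB combined a mean above that of shNTC with a place above the dim level, since MICA, ULBP2 and ULBP3 had mean changes 0.14, 0.30 and 2.17 below those of shNTC on the log2 scale. Of the 3 members above the dim level, the mean change in the shCNOT3 lines exceeded that of 99.4% of the tested genes for MICB, 80.5% for ULBP2 and 54.5% for MICA. The change of MICB led to the choice of the family, so nothing is read from its place in these comparisons.

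**Figure D3:**
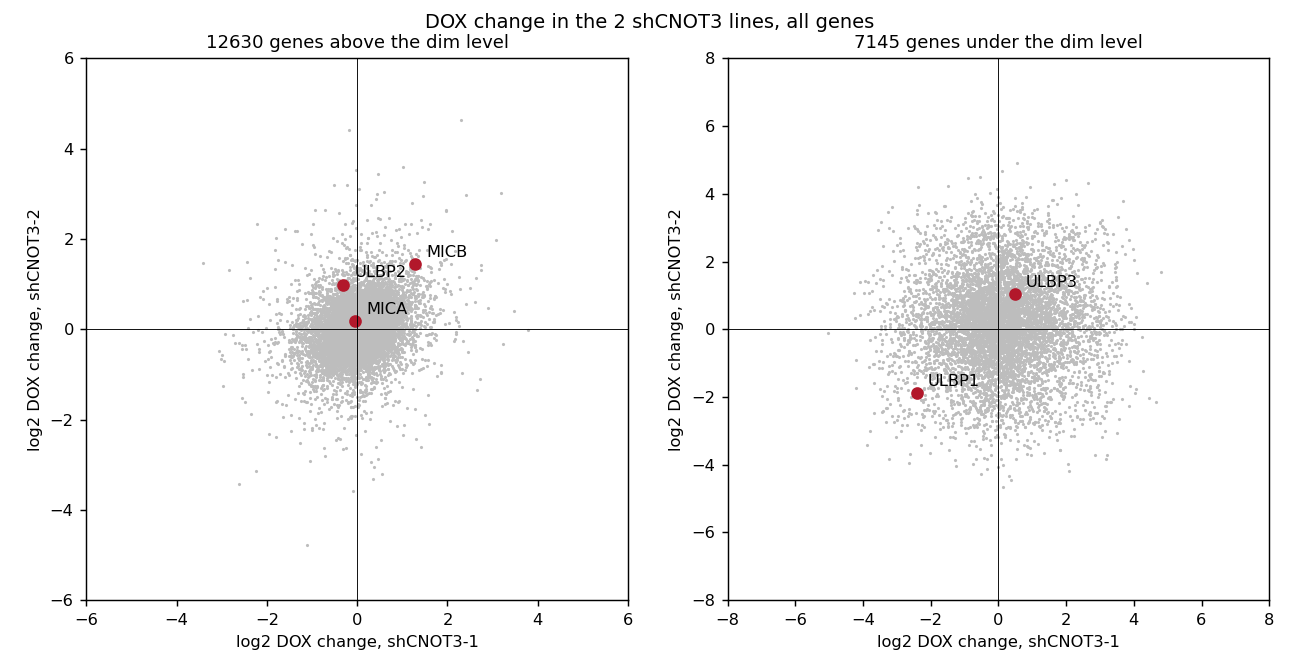
Log2 DOX change in shCNOT3-1 (horizontal) against shCNOT3-2 (vertical) for 12630 genes above the dim level (left) and 7145 genes under it (right), with the ligand genes in red. MICB (1.29 and 1.45) lies at the upper right edge of its cloud and MICA (-0.05 and 0.18) at its centre, while ULBP1 and ULBP3 lie in the wider cloud of the dim genes.

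The genes with the profile closest to MICB over the 6 arrays, by the root mean square difference of mean-centred log2 intensities, were PLAC8, ID3, an inhibitor of basic helix-loop-helix transcription factors, and PLAT, the tissue-type plasminogen activator. These differences were 0.08 for PLAC8, 0.12 for ID3 and 0.13 for PLAT. Closeness to MICB picked these 3 genes, so the likeness of their values below is no separate result. PLAC8 read 341 with and 150 without DOX in shCNOT3-1, 325 and 125 in shCNOT3-2, and 183 and 152 in shNTC. ID3 read 16331 with and 7676 without DOX in shCNOT3-1, 15623 and 6598 in shCNOT3-2, and 7536 and 6189 in shNTC. PLAT read 255 with and 103 without DOX in shCNOT3-1, 205 and 89.5 in shCNOT3-2, and 136 and 110 in shNTC. For ULBP2 the closest were MYH14, a non-muscle myosin heavy chain (0.06), the secreted lipoprotein lipase inhibitor ANGPTL4 (0.10) and S100A14 (0.11). All 3 were also lower with DOX in shCNOT3-1 and higher in shCNOT3-2 and shNTC, a likeness by which they were picked. MYH14 had a mean change of 0.27 in the shCNOT3 lines from this probe set, and its 5 others gave -0.15 to 0.69. MICA was closest to BASP1, ZMIZ1 and SLC39A14 (0.03 each), but as a nearly level gene it had 5543 genes within 0.25, against 37 for MICB and 325 for ULBP2.

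**Figure D4:**
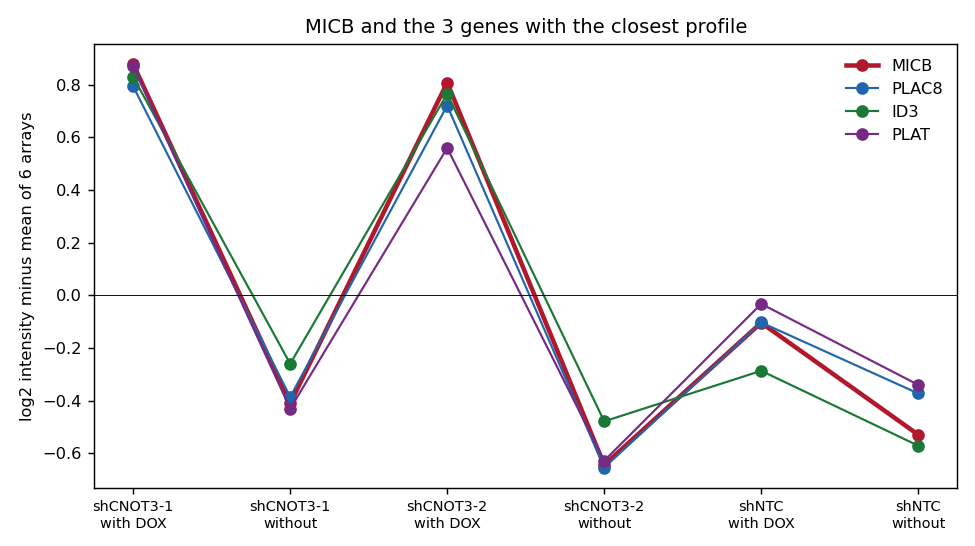
Log2 intensity minus the mean of the 6 arrays for MICB and the 3 tested genes with the most similar profile, by line and DOX state. All 4 are highest on the 2 arrays with CNOT3 knockdown, a likeness to MICB by which the 3 genes were picked. The root mean square difference from MICB is 0.08 for PLAC8, 0.12 for ID3 and 0.13 for PLAT.

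Genes around the ligands were then examined in 10 lists of 144 genes, of which 126 were above the dim level and could be tested. None of the 126 passed at an adjusted p under 0.05 in limma in either direction, against 0.53% of all genes. At an unadjusted p under 0.05, 13 (10.3%) were higher and 9 (7.14%) lower, against 7.51% and 7.06% of all genes tested. The values below are mean log2 changes of the shCNOT3 lines ± SD (n = 2), and none of these genes passed over all genes.

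The family has further members beside those above. Of RAET1E, RAET1G and RAET1L, which encode related ligands, only RAET1E had a probe set of its own, and its log2 changes were -0.36 and 0.51 in the shCNOT3 lines and -1.30 in shNTC. Ligand proteins are cut from the cell surface by metalloproteases. Among 12 such proteases and partners, 1 was higher at an unadjusted p under 0.05 and 0 lower, and the list's median was 0.05. RHBDF2, an inactive rhomboid that guides the sheddase ADAM17 to the surface, gave 0.56 ± 0.13, against 0.16 in shNTC. RHBDF1 gave 0.45 ± 0.20, against 0.13 in shNTC, although another RHBDF1 probe set gave -1.08. ADAM17 itself gave -0.99 in shCNOT3-1 and -0.01 in shCNOT3-2, against 0.21 in shNTC.

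The GPI anchor on which the ULBP proteins depend is built and attached by the PIG and PGAP proteins. Of 23 tested genes 2 were higher and 4 lower at an unadjusted p under 0.05, with a median of -0.11. PIGA, of the enzyme that starts the anchor, gave -0.65 ± 0.23, and PIGK, the catalytic subunit of the transamidase that attaches it, -0.58 ± 0.12. In shNTC PIGA gave 0.45 and PIGK 0.31. Other PIGK probe sets gave -0.52 and -0.58, so all 3 had the same sign. PGAP2, which helps to remodel the lipid of the anchor, gave 0.58 ± 0.12, against 0.09 in shNTC.

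Upstream of the ligand genes stand the DNA damage checkpoint, stress factors and the microRNA machinery. Of 14 checkpoint genes 1 was higher and 0 lower at an unadjusted p under 0.05, with a median of 0.11. It was TP53BP1, which binds chromatin at DNA breaks, at 0.78 ± 0.19, against 0.27 in shNTC, with other probe sets at -0.20 to 1.05. The histone H2AX gave -0.39 ± 0.50, against -0.13 in shNTC, with other probe sets at -0.45 to 0.32. TOPBP1, an activator of the kinase ATR, gave -0.28 ± 0.31, and shNTC gave nearly the same value, -0.27. Of 15 transcription regulators reported for ligand genes 0 were higher and 4 lower, with a median of -0.04. HDAC1, a histone deacetylase, gave -0.59 ± 0.03, against 0.14 in shNTC, and the cell cycle factor E2F3 gave -0.52 ± 0.06, against -0.04. For SP3, which binds GC boxes, -0.39 ± 0.03, against 0.02 in shNTC, came from one probe set, while the others gave -0.09 to 1.00. ATF4 gave 0.26 and 0.22 in the shCNOT3 lines and 0.24 in shNTC.

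The mRNA of ULBP2 is a known target of the RNA-binding protein IGF2BP3. In the list of microRNA machinery and IGF2BP proteins 3 of 14 were higher and 0 lower at an unadjusted p under 0.05, with a median of 0.18. IGF2BP3 gave 0.61 ± 0.06 (other probe sets -0.19 to 0.86), against 0.42 in shNTC. IGF2BP2 gave 0.88 ± 0.09, but shNTC gave 1.15, so the control line had the larger change. XPO5, which exports microRNA precursors from the nucleus, gave 0.52 ± 0.18, against -0.21 in shNTC, and its other probe sets gave 0.47 and 0.56.

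On the side of recognition, MHC class I molecules inhibit natural killer cells. Of 17 class I presentation genes 2 were higher and 1 lower at an unadjusted p under 0.05, with a median of 0.05. TAP1, a subunit of the peptide transporter, gave 0.73 ± 0.18, against 0.54 in shNTC. HLA-E, a ligand of the inhibitory receptor NKG2A, gave 0.44 ± 0.17, against 0.08 in shNTC, from a probe set of a kind that can bind related transcripts, and -0.30 and 0.79 from others. PDIA3, a chaperone of peptide loading, gave -0.47 ± 0.09, against 0.29 in shNTC, and other probe sets gave -0.80 and -0.54. B2M, the light chain of class I, gave -0.16 and 0.12 by hairpin, against 0.27 in shNTC, and means of 0.06 and 1.10 from other probe sets.

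Among 11 other activating and adhesion ligands 2 were higher and 0 lower at an unadjusted p under 0.05, with a median of 0.11. CD70, the ligand of CD27, read 841 with and 330 without DOX in shCNOT3-1, 548 and 328 in shCNOT3-2, and 357 and 381 in shNTC. Its mean change was 1.04 ± 0.43 (adjusted p = 0.101 in limma, and 0.554 with a DOX term). NCR3LG1, which encodes B7-H6, the ligand of NKp30, gave 1.04 in shCNOT3-1 and 0.28 in shCNOT3-2, against 0.45 in shNTC, which exceeds the second of these. CLEC2B, the ligand of NKp80, gave 0.47 ± 0.23, against 0.14 in shNTC, and its other probe set gave -0.05. Of 7 inhibitory ligands above the dim level 0 were higher or lower at that level, with a median of 0.09. CD47, which restrains phagocytosis, gave 0.29 ± 0.16, NECTIN3 0.36 ± 0.12 and NECTIN1 0.18 ± 0.12, each below its shNTC change of 0.32, 0.44 and 0.35. Other probe sets gave -0.32 to 1.47 for CD47, -0.17 for NECTIN3 and -0.95 to 1.82 for NECTIN1.

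Killer cells also act through death receptors. Of 12 genes of that pathway 2 were higher and 0 lower at an unadjusted p under 0.05, with a median of 0.20. CFLAR, which blocks caspase-8 at these receptors, gave 0.64 ± 0.22, against -0.20 in shNTC, but its 13 other probe sets ran from -1.44 to 0.60. FAS gave 0.19 in shCNOT3-1 and 1.09 in shCNOT3-2, against 0.29 in shNTC, and its other probe sets gave -0.56 to 0.90. The TRAIL receptor TNFRSF10B gave 0.33 ± 0.05, against 0.30 in shNTC, with other probe sets at -0.71 to 0.60.

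**Figure D5:**
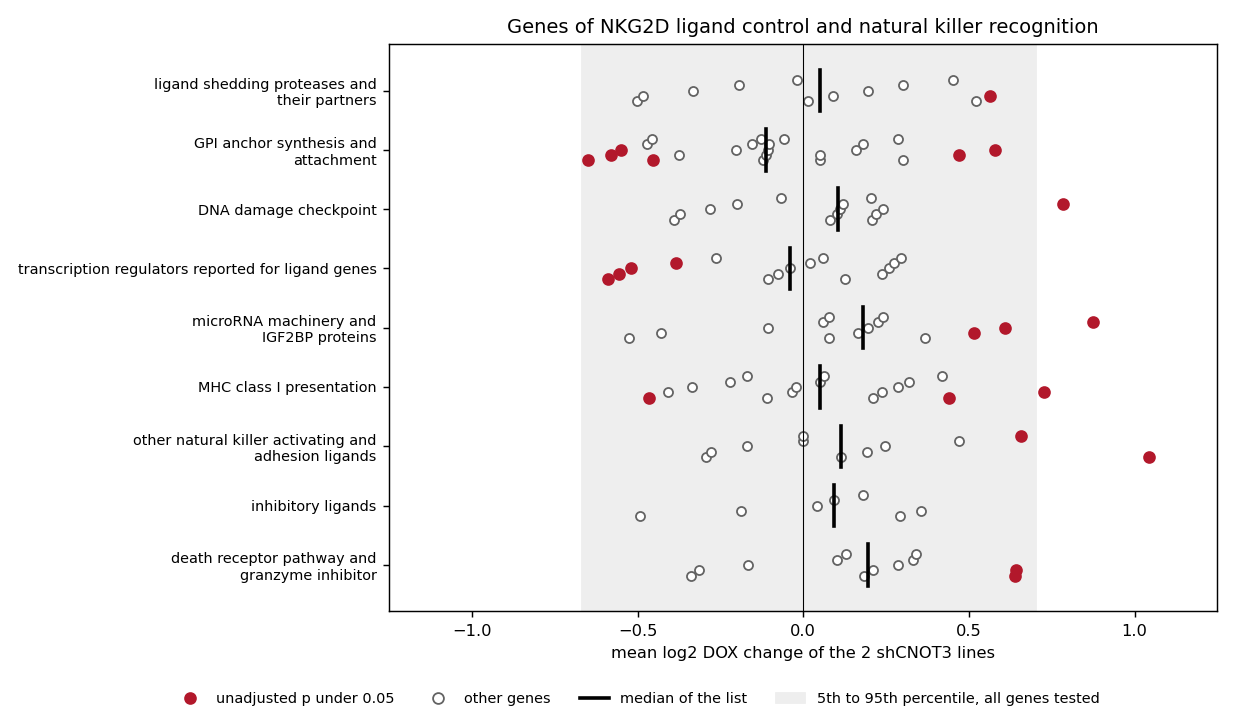
Mean log2 DOX change of the 2 shCNOT3 lines for each tested gene (point) of the 9 lists with more than 1 tested gene. Red points had an unadjusted p under 0.05, black bars are list medians and the grey band spans the 5th to 95th percentile of all 12630 tested genes (-0.67 to 0.70). List medians lie between -0.11 and 0.20, and the point farthest to the right is CD70 at 1.04.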

How the data were processed

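RNA of 6 samples was hybridised to 1-colour Affymetrix arrays. The authors deposited linear intensity per probe set. The submitters' processing notes name MAS5. For its settings, nothing is given in the sources used here. The mean trimmed by 2% per end was 500.1 on all arrays, and 0.369% to 0.688% of probe sets lay at the floor of 1. The number of arrays limits the precision. No genome build was named for the arrays.

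Probe sets were named from the platform annotation and symbols updated through the Entrez identifier. Values were taken to log2 after adding 1. A gene was read from its brightest probe set with 1 gene, and 12630 genes with a mean log2 of at least the median of all probe sets were tested. The fit was limma 3.58.1 in R 4.3.3 (intensity trend, robust prior), 2-sided, Benjamini-Hochberg adjusted, threshold 0.05, blocked on stable line with 1 knockdown term. The pairing comes from the labels, since each line was grown in both states, and deviations of the shCNOT3 lines from their group means correlated at r = 0.06 between states. Since no repeat cultures are described, p-values cover the spread among these arrays only, which may be technical. On simulated data for this comparison (12630 genes, 200 changed, 5 runs), the fit recovered 36.0% of genes changed 2-fold and 81.4% of those changed 4-fold. Of its calls there, 5.74% were false. The simulated noise was drawn from the fitted prior and was independent between genes. It held no DOX response and no difference between hairpins, so these shares do not carry over to the calls on the real arrays.

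The members and lists were chosen with earlier results of these data known. Named genes were CNOT3, the members, up to 3 genes per list with the smallest unadjusted p and the same sign in both hairpins, and the 3 closest profiles of each tested member. ATF4 and B2M were added after their values were seen. Alternatives covered scaling, the added constant, the filter, the probe set, the prior, the block, a DOX term and each line left out. Promoters came from RefSeq tables, and Python 3.11.15 with matplotlib 3.10.9 drew the figures.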

Additional observations from a re-analysis of the deposited data

Results flagged for a closer look

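Of 38 probe sets examined, 10 had DOX changes of one sign in both shCNOT3 lines and of the other sign in shNTC. That is 26.3%, not above the 30.9% of all 12630 tested genes (3905) with the same pattern. Many of the probe sets examined came from genes picked for the same sign in both hairpins, which all tested genes were not. The shares are therefore not comparable, and neither an excess nor a lack is read from them. The difference (shCNOT3 mean minus shNTC, log2) was 1.44 for MICA-AS1, 1.14 for CD70, 0.83 for CFLAR and 0.72 for XPO5. It was -1.10 for PIGA, -0.89 for PIGK, -0.76 for PDIA3, -0.73 for HDAC1, -0.71 for ADAM17 and -0.40 for SP3. Their opposite signs picked these genes, so a p for the same difference is no independent test. In the model with a DOX term none passed after adjustment over all genes (adjusted p 0.417 to 0.764 in limma). MICA-AS1 lies beside MICA and was read from 1 probe set, with changes of 0.55 and 0.24 in the shCNOT3 lines and -1.05 in shNTC.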

How the results depend on the processing

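The mean log2 change of MICB was 0.94 (beyond shNTC) to 1.45 over the alternatives. These reuse the values that led to the choice of the genes, so the kept direction is no support. Settings of the filter and the prior could not alter the change. The probe set shared with MICA, at 0.44 and -0.02 in the shCNOT3 lines, was not among the alternatives. The number of genes called, 67 in the fit as reported, was 42 after quantile normalization, 28 with an ordinary prior (chosen after seeing the data), 6 with probe sets of a gene averaged and 207 with no replicate block. It was 0 with no filter on dim genes, with no intensity trend in the prior and with a DOX term added, where 2148, 1529 and 1059 genes had an unadjusted p under 0.05 in limma. It was 39 without shCNOT3-1, and 39 to 64 over the lines left out. The count of listed genes at an unadjusted p under 0.05, 22 as reported, was 14 with no intensity trend and 9 with a DOX term, and 13 to 19 over the lines left out (13 without shCNOT3-1 and 13 without shCNOT3-2). The members' median change of 0.34 was -0.30 beyond shNTC and -0.046 to 0.99 over the lines left out, the lowest without shCNOT3-2, where 1 hairpin remains. Beyond shNTC the sign also turned for MICA (-0.14), ULBP2 (-0.30), ULBP3 (-2.17), IGF2BP2 (-0.28), NECTIN3 (-0.080), CD47 (-0.033) and NECTIN1 (-0.18). It turned without shCNOT3-2 for MICA (-0.046, and 0.18 without shCNOT3-1) and ULBP2 (-0.31), with no replicate block for MICA (-0.016), and with the mean of all probe sets for RHBDF1 (-0.32) and SP3 (0.20), where the other RHBDF1 probe set and 3 of 4 other SP3 probe sets had the opposite sign. Causes of the remaining differences were not tested. Leaving out a hairpin assumes that the lone other one varies like shNTC.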

Other observations

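Some listed genes lay under the dim level and were not tested, and 3 are given here after their values were seen. NLRC5, a transactivator of MHC class I genes, read 75.3 with and 38.8 without DOX in shCNOT3-1, 109 and 36.3 in shCNOT3-2, and 7.66 and 27.9 in shNTC. CD274, which encodes the inhibitory ligand PD-L1, read 75.3 and 48.7 in shCNOT3-1, 75.4 and 28.7 in shCNOT3-2, and 53.9 and 32.4 in shNTC, with DOX first. TNFRSF14 read 50.4 and 26.1, 73.0 and 16.5, and 65.3 and 12.2 in the same order. Both CD274 and TNFRSF14 were thus higher with DOX in all 3 lines, shNTC included.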
